A study of Mus musculus with 8 samples.

Results

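The 59 genes described here encode proteins that copy the genome and divide it: cyclins and their kinases, the factors that license and fire replication origins, and the spindle, checkpoint and cytokinesis proteins of mitosis. They were taken by gene symbol from a list of known cell cycle functions, drawn up with earlier results of these data known, and all 59 were found among the 21705 gene names of the table. By textbook function 29 act at the entry into or during DNA replication (the G1/S members) and 30 act from late S phase to cell separation (the G2/M members). RNA of mouse kidney cortex had been sequenced in 4 libraries labelled Sav1+/+ and treated with vehicle, called wild-type below, and in 4 labelled Sav1-/- and treated with tamoxifen, called Sav1-null below after that label. Both groups are of mixed background strain, and genotype and treatment changed together. No source used here gives the driver of the deletion or the age of the mice. Sav1 encodes a scaffold of the Hippo kinases, and the comparison asked what differs in the cortex after its loss.

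A cell that leaves quiescence first makes D-type cyclins, whose kinases release E2F transcription factors from the retinoblastoma protein. E2F-driven genes then build the replication machinery, and a later wave of genes, led by FOXM1 and B-MYB, builds the mitotic apparatus. In the healthy adult kidney few tubule cells divide, whereas surviving tubule cells can re-enter the cell cycle after injury.

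Levels are in the authors' normalized units, on which percentile 75 of a library's non-zero genes is 999 or 1000 and 1 read is worth between 0.7808 and 1.031. Library totals corresponded to 15700000 to 25000000 reads. Sav1 was at 1504, 1743, 959 and 1193 in wild-type replicates 1 to 4 and at 983, 914, 982 and 714 in the Sav1-null ones, so that wild-type replicate 3 lay within the Sav1-null range and the ratio of the group means was 0.665. Sav1 RNA was thus lower but still present in the cortex libraries labelled Sav1-/-. Its log2 fold change was -0.56 ± 0.19 (SE, limma adjusted p = 0.0220), with p = 0.0857 in a two-sided exact permutation test, where 0.0286 is the smallest p this design allows. Xist, which silences an X chromosome in female cells, reached at least 9280 in each Sav1-null library and at most 1 read in a wild-type library, while 4 Y-linked genes had reads in the wild-type group alone. Sex, genotype and treatment cannot be told apart in the results that follow. Each column name holds a number of its own, shared with no other library, and ends in an S number. The same S numbers recur in both groups, in another order than the replicate numbers. A prefix stands in the Sav1-null group alone. The names do not say what these numbers stand for. Any difference in handling between the groups could not be told apart either.

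Replication and mitosis genes were mostly higher in the Sav1-null cortex, from Mcm3 of the replicative helicase and Pola1 of the polymerase to Bub1b of the spindle checkpoint and the proliferation marker gene Mki67. All 59 passed the filter on low values (mean over both groups no lower than 10). In a limma model of log2(value + 1) with p-values adjusted over all 13677 tested genes, 47 members were called higher (adjusted p under 0.05) and 2 lower, Ccnd1 and E2f1. Among all tested genes 43.9% were called higher and 25.2% lower, 69.1% in all. Of the G2/M members 27 of 30 rose and 0 fell, and the median log2 fold change was 1.39, or 2.63-fold. At an unadjusted p under 0.05 the number of G2/M members that were lower was also 0, since no G2/M member had a negative fold change. Of the G1/S members 20 of 29 rose and 2 fell, with a median of 0.87, or 1.82-fold. The median of all tested genes was 0.23. At least 2-fold rises were called for 33 members, against 23.1% of all tested genes. The 4 libraries of one group lay wholly above the 4 of the other in 46 members that were higher and in 2 that were lower, where 41.0% and 24.1% of all tested genes did so. Folds are antilogs of log2(value + 1) differences, so those of weakly expressed genes are understated, and a bulk value cannot tell more cells of a kind from more RNA in each cell.

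**Figure D1:**
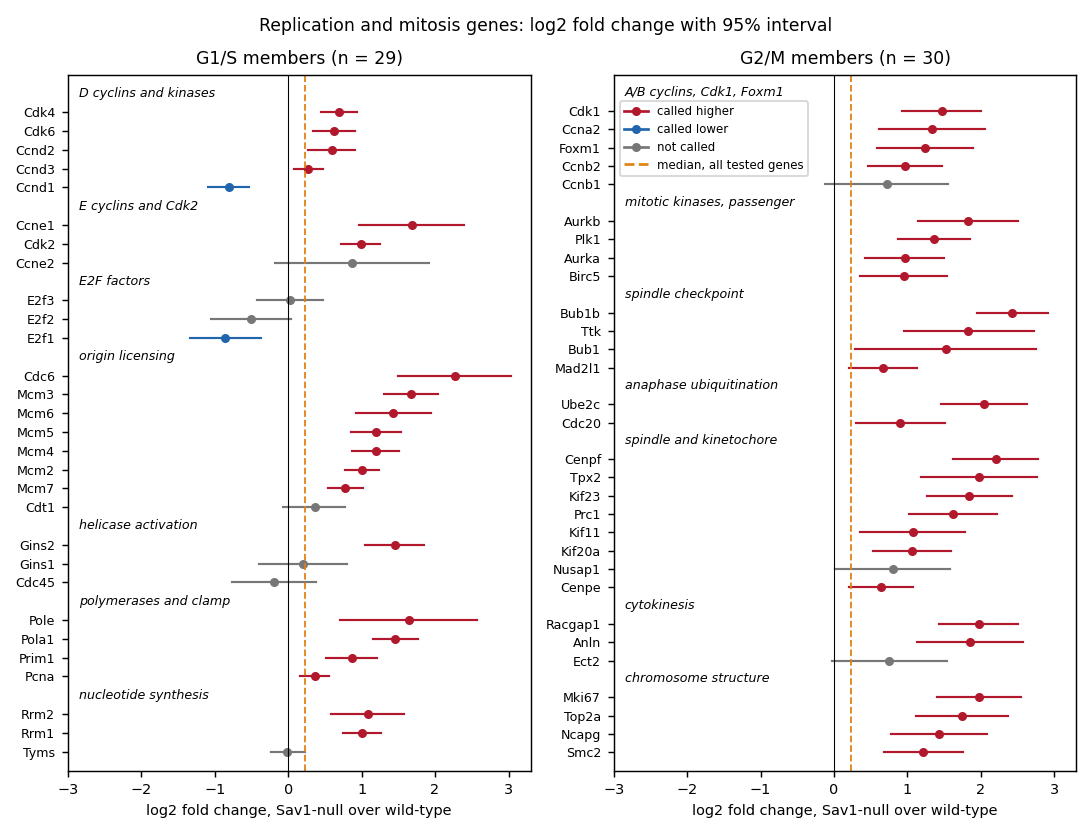
Log2 fold change of each member (point) with its 95% interval (line) from the limma model, grouped by role, for the 29 G1/S members (left) and the 30 G2/M members (right). The horizontal axis is Sav1-null over wild-type, red and blue mark members called higher and lower, grey those not called, and the dashed line is the median of all tested genes, 0.23. Every G2/M point lies to the right of the dashed line, while Ccnd1 and E2f1 stand to the left of 0.

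The choice of scaling moved these counts. With the deposited values 63.5% of all calls among the tested genes were higher, and the share was 49.9% with median-of-ratios rescaling, 48.3% when quantile-normalized and 81.7% for libraries scaled to the same total. In that order the median of all genes shifted by -0.22, -0.26 and 0.38 from its deposited value. Median-of-ratios rescaling left 18 G1/S and 24 G2/M members called higher, where 33.8% of all tested genes were. Equal library totals gave 23 and 30 (63.4% of all tested genes), adding Ccne2, Cdt1, Tyms, Ccnb1, Nusap1 and Ect2. Quantile normalization gave 14 of 29 and 13 of 30 (31.0% of all tested genes), with G1/S and G2/M medians of 0.50 and 0.48. It called 5 members lower, against 33.3% of all tested genes. The G2/M median exceeded that of all genes by 1.16 as deposited, 1.17 and 1.16 under the first and last of these scalings, and by 0.51 after quantile normalization. Rises of 26 members, 13 of each phase, were called under every one of the 18 alternatives that tested them: Cdk4, Cdk2, Cdc6, Mcm2 to Mcm7, Gins2, Pola1, Rrm1 and Rrm2 of the G1/S members, and Cdk1, Aurkb, Bub1b, Ube2c, Kif23, Tpx2, Prc1, Cenpf, Anln, Racgap1, Top2a, Smc2 and Mki67 of the G2/M members. The share of all tested genes called higher under every alternative was not computed, so this count has no background beside it.

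**Figure D2:**
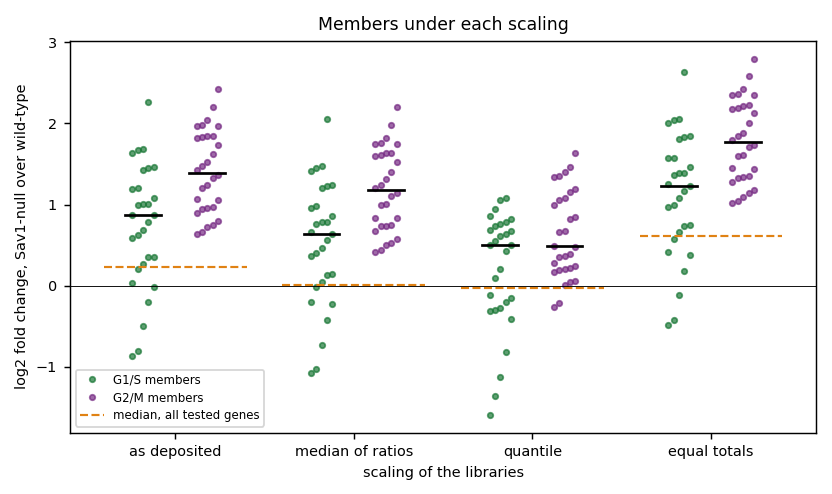
Log2 fold change of every member (points, vertical axis, Sav1-null over wild-type) under the deposited scaling and 3 other scalings of the libraries (horizontal axis). Black bars are the medians of the G1/S (green) and G2/M (purple) members, and the dashed line is the median of all tested genes, which moves from 0.23 to 0.01, -0.03 and 0.61, while the G2/M median stands well above it except after quantile normalization, where the distance is 0.51.

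Promoter sequences show which known cell cycle elements lie beside these genes. RefSeq promoters (build GRCm38.p6, 250 bases before to 50 after the gene start) matched 47 of the 59 members by symbol, 22 G1/S and 25 G2/M. No entry matched Aurkb, Ccna2, Ccnd1, Ccnd2, Ccne2, Foxm1, Gins1, Gins2, Kif20a, Mcm4, Pole and Tpx2. Both strands were searched for the cell cycle homology region (CHR, TTTGAA or TTCGAA), which the DREAM and MuvB complexes bind, the NF-Y box (CCAAT), the E2F words GCGGGAA and GCGCCAA, and the TEAD word CATTCC, bound by the partners of YAP. The word GCGCCAA overlaps a CCAAT box where a T follows it. The promoters of the G1/S and the G2/M member with the smallest p (Pola1 and Bub1b), and of the member of each phase that was not called and had the largest p (Tyms and Ccnb1), are shown in full, with every match in capitals. They lie at chrX:93632106-93632405 (minus strand), chr5:30073576-30073875 (minus), chr2:118597961-118598260 (plus) and chr13:100786437-100786736 (minus), and are written 5′ to 3′ in the direction of the gene.
Pola1: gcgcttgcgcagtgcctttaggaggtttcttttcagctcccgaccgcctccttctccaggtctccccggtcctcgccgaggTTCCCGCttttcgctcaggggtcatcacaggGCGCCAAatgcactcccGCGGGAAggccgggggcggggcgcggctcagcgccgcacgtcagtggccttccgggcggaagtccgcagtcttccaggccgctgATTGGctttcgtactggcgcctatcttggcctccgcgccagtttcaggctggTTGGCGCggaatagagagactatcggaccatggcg
Tyms: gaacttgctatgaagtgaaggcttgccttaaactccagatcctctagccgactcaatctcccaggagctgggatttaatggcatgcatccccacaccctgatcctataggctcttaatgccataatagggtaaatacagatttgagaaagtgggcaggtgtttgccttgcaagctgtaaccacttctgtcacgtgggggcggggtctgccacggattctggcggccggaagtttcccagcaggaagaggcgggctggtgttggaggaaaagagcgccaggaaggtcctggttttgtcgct
Bub1b: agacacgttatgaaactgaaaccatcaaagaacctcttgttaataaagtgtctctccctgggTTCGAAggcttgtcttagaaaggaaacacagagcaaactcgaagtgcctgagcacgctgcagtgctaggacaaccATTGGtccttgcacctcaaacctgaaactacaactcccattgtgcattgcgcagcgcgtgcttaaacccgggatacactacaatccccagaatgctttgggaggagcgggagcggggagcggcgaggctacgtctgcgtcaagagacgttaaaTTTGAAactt
Ccnb1: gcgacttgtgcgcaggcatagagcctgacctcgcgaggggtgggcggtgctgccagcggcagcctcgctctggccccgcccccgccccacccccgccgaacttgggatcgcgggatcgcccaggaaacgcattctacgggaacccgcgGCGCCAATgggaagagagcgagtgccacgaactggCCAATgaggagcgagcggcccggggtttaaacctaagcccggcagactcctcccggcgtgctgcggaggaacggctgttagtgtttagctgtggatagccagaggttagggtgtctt

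The Pola1 promoter holds E2F words 169, 138 and 121 bases before the start and another 16 bases after it, and an NF-Y box 37 bases before the start. Bub1b has a CHR 188 bases before and another 41 bases after the start, with an NF-Y box between them, 113 bases before the start. In Ccnb1 the NF-Y boxes lie 99 and 67 bases before the start, the former overlapping an E2F word, and none of the searched CHR words is in this window. None of the 4 kinds of word is in the Tyms window. A CHR stood in 20 of 25 G2/M members (80.0%) and 5 of 22 G1/S members (22.7%), against 21.7% of all 27025 genes with a promoter. An E2F word stood in 12 of 22 G1/S members (54.5%) and 5 of 25 G2/M members (20.0%), against 7.79% of all genes. The contrast of Pola1 with Tyms did not extend to the G1/S members. An E2F word stood in 9 of 16 called higher and in 3 of 6 not called higher. A CHR stood in 2 of these 16 and in 3 of these 6. Of the G2/M members called higher 19 of 22 held a CHR. Among those not called, Ect2 held a CHR and Ccnb1 and Nusap1 did not. Whether the words go with the rise was not tested. The NF-Y box was in 68.2% of the G1/S, 84.0% of the G2/M members and 41.1% of all genes, and CHR and NF-Y box occurred together in 76.0% of the G2/M members and 8.61% of all genes. The TEAD word was found in 2 G1/S (9.09%) and 4 G2/M members (16.0%), and in 16.6% of all genes. These shares describe letters, not occupied sites, and promoters differ in base composition.

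The 6 G2/M members with the next smallest p that hold a CHR are shown for the bases around the element, in 26 bases with the CHR nearest the start, read on the strand that gives TTTGAA (capitals). They were chosen after the values were seen and for holding the word, so the shared capitals are not a finding. They lie at chr1:189688069-189688094, chr15:99651636-99651661, chr2:164769890-164769915, chr7:135716462-135716487, chr9:61946782-61946807 and chr11:99024197-99024222, and those of Ube2c and Top2a are read against the direction of the gene.
Cenpf: cggcgggcagTTTGAAtcgctcgtgc
Racgap1: ggtgcgtgatTTTGAAccggatctgg
Ube2c: gccgcccgcgTTTGAAttgcaaccct
Mki67: gccgttttggTTTGAAtcgggcgggc
Kif23: gattggcctgTTTGAAatgcgccggg
Top2a: cctagtttcaTTTGAAcctttatcta

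In the same way the E2F word nearest the start (capitals) is shown for the 4 G1/S members next in order of p that hold one, at chr1:20820277-20820303, chr7:102441618-102441644, chr10:128705045-128705071 and chr8:75109350-75109376, with that of Rrm1 read against the direction of the gene.
Mcm3: aacttccgtgGCGGGAAaacttgggaa
Rrm1: agcggacctgGCGGGAAcgagttctcc
Cdk2: ccagggaaacGCGGGAAggaggggcgg
Mcm5: aagaactttcGCGCCAAaacgtccagc

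**Figure D3:**
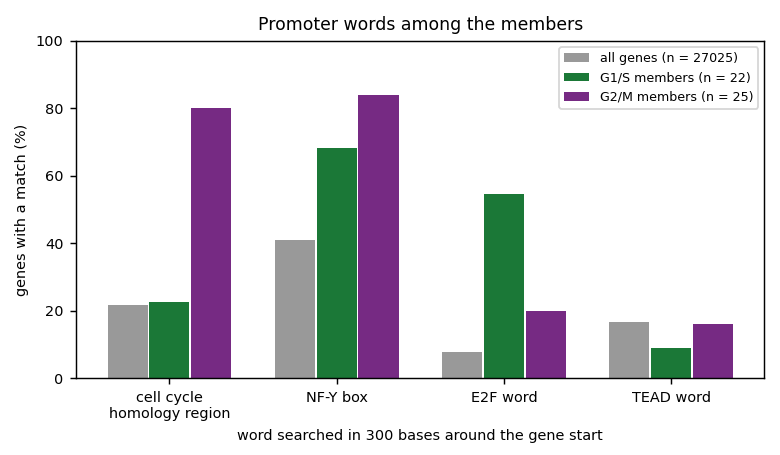
Share of genes (vertical axis, percent) whose RefSeq promoter of 300 bases holds each searched word on either strand, for all 27025 genes (grey), 22 G1/S members (green) and 25 G2/M members (purple). The cell cycle homology region stands out in the G2/M members (80.0%) and the E2F word in the G1/S members (54.5%), while the TEAD word is at 9.09% and 16.0% beside 16.6% of all genes.

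The genes that start the cycle split. Ccnd1, the D-type cyclin that growth signals induce, was at 12337, 9294, 10381 and 11478 in the wild-type libraries and at 6794, 5986, 6907 and 5168 in the Sav1-null ones, with no overlap between the groups. It fell 1.75-fold (log2 fold change -0.81 ± 0.13, SE, limma adjusted p = 0.000333), a call lost after quantile normalization (-0.20, limma adjusted p = 0.137). The other D cyclins moved the opposite way as deposited. Ccnd2 rose from 106 ± 13.9 to 159.6 ± 17.4 (SD, n = 4), and had a log2 fold change of -0.11 after quantile normalization. Ccnd3 rose from 1924 ± 216 to 2316 ± 77.9, a call lost after median-of-ratios rescaling (limma adjusted p = 0.668) and without wild-type replicate 1 (limma adjusted p = 0.0595) or 2 (limma adjusted p = 0.0553). Their kinase partner genes rose too, Cdk4 1.62-fold, from 1377 to 1508 in the wild-type libraries to 2034 to 2917, and Cdk6 1.54-fold, a value that turned to a log2 fold change of -0.15 after quantile normalization.

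Cyclin E drives the step into S phase with CDK2. Ccne1 was at 6.35, 17.6, 9.57 and 14.4 in the wild-type and at 39.0, 38.1, 31.6 and 45.3 in the Sav1-null libraries, a 3.21-fold rise (limma adjusted p = 0.00117) that rests on 7 to 50 reads a library and was not called after quantile normalization (limma adjusted p = 0.191). Cdk2 rose 1.98-fold, from 224 ± 23.4 to 445 ± 53.6. Ccne2 was uneven, at 24.8, 8.57, 9.26 and 15.4 in wild-type against 31.8, 28.4, 40.4 and 10.6 in Sav1-null libraries, and was not called (limma adjusted p = 0.123). Without Sav1-null replicate 4, its lowest library there, it was called higher (log2 fold change 1.26, limma adjusted p = 0.0137).

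None of the 3 E2F genes was called higher, as deposited or under any alternative. E2f1, an activator of S-phase genes, was at 154, 178, 116 and 191 in the wild-type libraries and at 111, 84.1, 94.0 and 63.0 in the Sav1-null ones. The ranges did not overlap, and the 1.81-fold fall (log2 fold change -0.86 ± 0.22, SE, limma adjusted p = 0.00583) was called in all alternatives except equal library totals (-0.48, limma adjusted p = 0.0594). E2f2 went from 104 ± 37.0 to 70.0 ± 9.13 and missed the threshold (limma adjusted p = 0.0914). It was called lower under 2 other scalings (-0.73 by median of ratios, -1.36 by quantiles) and without wild-type replicate 3, its lowest wild-type library (-0.69, limma adjusted p = 0.0231). E2f3 was at 262 ± 74.0 and 259 ± 22.4, and the 95% interval of its fold change ran from 0.743 to 1.40.

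Origin licensing is the loading of the MCM helicase onto DNA in G1. All 6 genes of the helicase, Mcm2 to Mcm7, rose between 1.72-fold (Mcm7) and 3.18-fold (Mcm3), with no overlap between groups. Mcm3 was at 84.9, 91.0, 59.9 and 94.6 in the wild-type and at 289.7, 255, 234 and 268 in the Sav1-null libraries (log2 fold change 1.67 ± 0.16, SE, limma adjusted p = 2.1e-05). Mcm2 went from 289 ± 26.2 to 581 ± 56.9, Mcm4 from 179 ± 34.2 to 405 ± 34.7, Mcm5 from 127 ± 17.8 to 293 ± 44.2 and Mcm6 from 129 ± 40.8 to 338 ± 38.7. Of the 2 helicase loaders in the list, Cdc6 rose 4.81-fold, the highest fold among the G1/S members. Its wild-type values were 5.44, 7.54, 7.66 and 18.6 and its Sav1-null values 42.9, 47.9, 42.7 and 52.2, on 6 to 55 reads a library. Cdt1 did not pass the test (129 ± 29.9 to 164 ± 22.9, limma adjusted p = 0.117), except with equal totals (limma adjusted p = 0.00551) and without wild-type replicate 4 (limma adjusted p = 0.0397).

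The helicase activators behaved unequally. Gins2, a subunit of the GINS complex, rose 2.74-fold, from 39.0, 65.3, 47.8 and 48.5 to 151, 143, 126 and 129. Gins1, a subunit of the same complex, was at 40.4 ± 11.4 and 46.2 ± 11.3, with a fold change interval from 0.760 to 1.74. Cdc45, which joins GINS and MCM in the active helicase, was at 54.4, 104, 49.8 and 84.5 in wild-type and 74.2, 62.6, 53.7 and 55.1 in Sav1-null libraries, and the interval ran from 0.587 to 1.30. Both Gins1 and Cdc45 were called lower after quantile normalization (log2 fold change -0.82 and -1.12, limma adjusted p = 0.0219 and 0.00313).

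All 4 polymerase and clamp genes rose as deposited. Pola1, the catalytic subunit of polymerase alpha whose promoter is shown above, was at 95.2, 103, 86.1 and 91.8 and at 302, 257, 274 and 214, a 2.75-fold rise (log2 fold change 1.46 ± 0.14, SE, limma adjusted p = 1.54e-05). Prim1, the primase that works with it, rose 1.82-fold and Pole, the leading-strand polymerase, 3.12-fold from 22.7 ± 11.5 to 65.5 ± 14.4. Pcna, the sliding clamp, rose 1.29-fold, from between 356 and 403 to between 433 and 502, a call that median-of-ratios rescaling ended (limma adjusted p = 0.194). Calls of Pcna, Pole and Prim1 were also lost after quantile normalization. Both ribonucleotide reductase genes of the list rose: Rrm1 2.01-fold (307 ± 36.5 to 617 ± 50.9) and Rrm2 2.12-fold (200.1 ± 57.8 to 418 ± 88.9). Tyms, the thymidylate synthase, did not go with them. It was at 396, 350.2, 334 and 418 in the wild-type and at 390.4, 339, 363 and 395 in the Sav1-null libraries, with a fold change interval from 0.847 to 1.17. Under other scalings it was called higher with equal totals (log2 fold change 0.38) and lower after quantile normalization (-0.30).

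**Figure D4:**
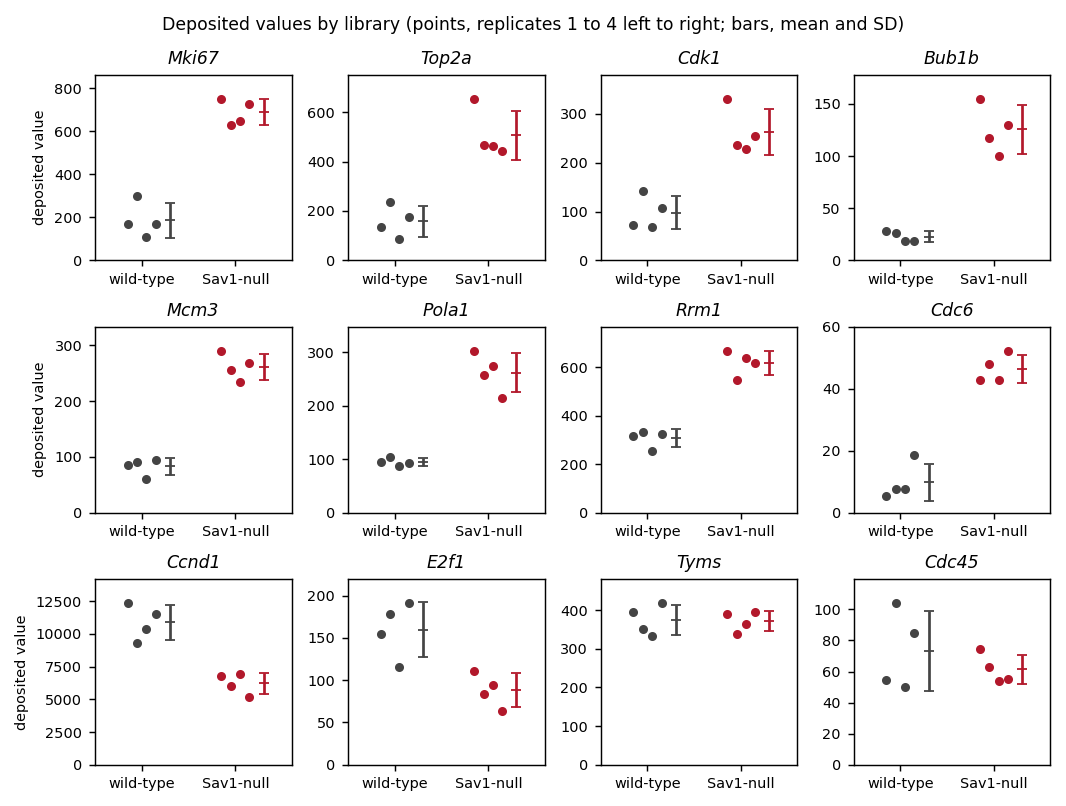
Deposited values (vertical axes, each starting at 0) of 12 members in the 4 wild-type (grey) and 4 Sav1-null (red) libraries, 1 point a library, with the mean and SD beside them. Mki67, Top2a, Cdk1, Bub1b, Mcm3, Pola1, Rrm1 and Cdc6 show higher Sav1-null points with no overlap, Ccnd1 and E2f1 lower ones with no overlap, and the points of Tyms and Cdc45 overlap.

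At the passage into mitosis, Cdk1, the kinase that triggers it, was at 72.5, 142, 68.9 and 107 in the wild-type and at 331, 236, 229 and 254 in the Sav1-null libraries. All Sav1-null values lay above the wild-type range, and the rise was 2.76-fold (log2 fold change 1.47 ± 0.24, SE, limma adjusted p = 0.00047). Among the cyclins that bind it, Ccna2 rose 2.51-fold and Ccnb2 1.96-fold. Ccnb1 was at 39.0, 52.8, 22.0 and 46.4 and at 98.4, 64.5, 75.1 and 33.5, so that Sav1-null replicate 4 fell among the wild-type libraries, and it was not called (limma adjusted p = 0.111). Without that library it was (log2 fold change 1.02, limma adjusted p = 0.0136). Foxm1, the factor that drives the mitotic wave, rose 2.35-fold, from 72.8 ± 27.4 to 162 ± 16.5. Calls of Ccna2, Ccnb2 and Foxm1 were lost after quantile normalization.

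The mitotic kinase and passenger genes rose in 4 of 4. Plk1, the polo-like kinase, went from 33.9 ± 3.73 to 90.9 ± 26.1 (2.57-fold) and Aurkb, the passenger complex kinase, from 27.3 ± 12.4 to 93.2 ± 14.2 (3.53-fold). Aurka, the spindle pole kinase, and Birc5, which encodes the passenger subunit survivin, rose 1.94-fold and 1.93-fold. Plk1, Aurka and Birc5 were not called after quantile normalization, with log2 fold changes of 0.37, 0.01 and 0.19.

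Of the spindle checkpoint genes, which delay anaphase until chromosomes are attached, Bub1b had the highest fold change of all 59 members. Its wild-type values were 28.1, 26.0, 18.2 and 18.6 and its Sav1-null values 155, 117, 100.3 and 129.9, a 5.37-fold rise (log2 fold change 2.42 ± 0.22, SE, limma adjusted p = 1.18e-05). Ttk, the MPS1 kinase, rose 3.56-fold on 3 to 34 reads a library. Bub1 was at 15.4, 20.9, 3.83 and 20.6 and at 71.1, 50.8, 26.9 and 23.6. Its 2.87-fold rise (limma adjusted p = 0.0315) did not hold when wild-type replicate 3 (1.01 on the log2 scale, limma adjusted p = 0.0550), Sav1-null replicate 1 (1.24, limma adjusted p = 0.0858) or Sav1-null replicate 2 (1.40, limma adjusted p = 0.0790) was left out. Median-of-ratios rescaling ended the calls of Bub1 (limma adjusted p = 0.0562) and Mad2l1 (limma adjusted p = 0.0775). Mad2l1 rose 1.58-fold although Sav1-null replicate 4, at 156, lay below wild-type replicate 2, at 168. Only Bub1b of these 4 was called after quantile normalization. The genes of anaphase ubiquitination both rose, the conjugating enzyme gene Ube2c 4.12-fold (34.2 ± 14.0 to 136 ± 12.3) and the activator gene Cdc20 1.87-fold (101 ± 33.8 to 185 ± 44.6), the latter not after quantile normalization (limma adjusted p = 0.504).

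In the spindle and kinetochore group 7 of 8 rose. Cenpf, an outer kinetochore gene, was at 36.3, 64.5, 26.8 and 43.3 in the wild-type and at 237, 196, 169.9 and 166 in the Sav1-null libraries, a 4.59-fold rise. Tpx2, an activator of Aurora A, rose 3.94-fold, the central spindle genes Kif23 and Prc1 3.57-fold and 3.08-fold, and the motor genes Kif11 and Kif20a 2.10-fold and 2.08-fold, both motor genes not after quantile normalization (limma adjusted p = 0.453 and 0.402). Cenpe, a kinetochore motor gene, rose 1.56-fold from a narrow wild-type range of 62.0 to 68.9. Its call was lost after median-of-ratios rescaling (limma adjusted p = 0.0729) and the value turned to -0.21 on the log2 scale after quantile normalization. Nusap1, a spindle microtubule bundler, was not called (122 ± 63.7 to 195 ± 44.0, limma adjusted p = 0.0657). It was called higher without wild-type replicate 4, its highest wild-type library at 209.6 (limma adjusted p = 0.0083), or without Sav1-null replicate 4 (limma adjusted p = 0.0392).

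Cytokinesis genes rose in 2 of 3. Racgap1 of the centralspindlin complex was at 52.6, 119.8, 58.4 and 76.3 and at 299.8, 286, 257 and 312, a 3.91-fold rise, and Anln, which encodes the contractile ring protein anillin, rose 3.60-fold. Ect2, the exchange factor that centralspindlin recruits, was at 88.0, 146, 65.1 and 86.6 against 236, 137, 216 and 85.6, and was not called (limma adjusted p = 0.0789). Leaving out wild-type replicate 2 (limma adjusted p = 0.0357) or Sav1-null replicate 4 (limma adjusted p = 0.00831) made it so. The 4 genes of chromosome structure rose. Mki67, the Ki-67 proliferation marker gene, was at 169.6, 299, 109 and 167 in the wild-type and at 750.3, 629.5, 649 and 726 in the Sav1-null libraries (3.92-fold, log2 fold change 1.97 ± 0.26, SE, limma adjusted p = 0.00011). Top2a, the topoisomerase that untangles sister chromatids, rose 3.35-fold (158 ± 62.7 to 506 ± 99.2). The condensin subunit genes Ncapg and Smc2 rose 2.69-fold and 2.32-fold, the former not after quantile normalization (limma adjusted p = 0.272).

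The same libraries were often the highest or lowest of their group across the mitotic genes, which share those libraries. Wild-type replicate 2 was the highest wild-type library for 22 of 30 G2/M members and replicate 3 the lowest for 26, while over all tested genes these libraries held that place in 32.9% and 25.6%. Sav1-null replicate 1 was the highest of its group for 27 of 30, against 22.5% of all genes. The median log2 difference of the G2/M members from their wild-type mean was -0.10, 0.48, -0.68 and 0.17 in wild-type replicates 1 to 4 and 1.84, 1.35, 1.22 and 1.28 in the Sav1-null ones. For the G1/S members these medians were 0.02, 0.07, -0.19 and 0.11, then 0.87, 0.75, 0.85 and 0.93, a narrower spread in both groups. Havcr1, which encodes the tubule injury marker KIM-1, was at 23.6, 1099, 665 and 15.5 in the wild-type libraries. The 2 with raised Havcr1 stood at opposite ends of the mitotic order. Whether injury goes with the order of the libraries was not tested. In the Sav1-null group Havcr1 was at 16582, 8933, 10330 and 6275, highest in replicate 1. None of the other injured tubule markers in the list of 13 was highest in that library. Their sum, Havcr1 included, was 620597, 876047, 552140 and 643557 in Sav1-null replicates 1 to 4, highest in replicate 2. Spp1, named after its value was seen, was at 469068, 687852, 403793 and 328005, the larger part of each sum. Most of the other markers were highest in replicate 4. Without wild-type replicates 2 and 3 together, 20 G1/S and 25 G2/M members were called higher and 3 G1/S members lower. Of all tested genes 38.4% were then called higher and 20.1% lower.

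**Figure D5:**
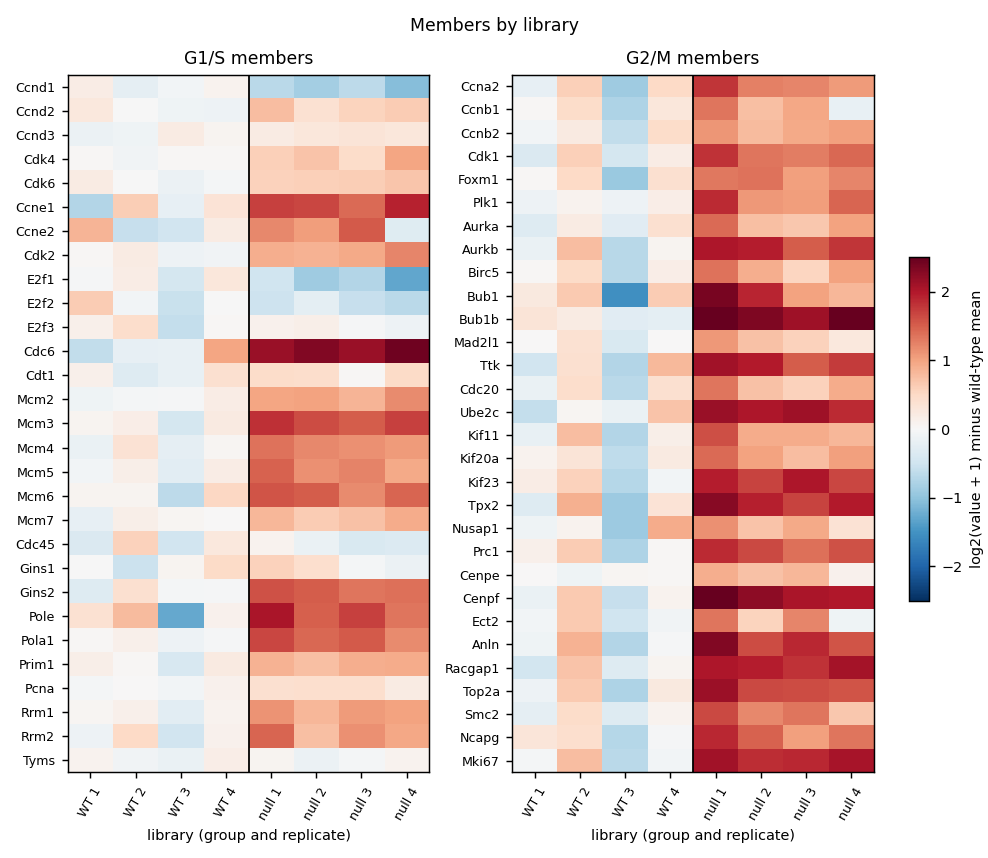
Each member (rows) in each library (columns, WT for wild-type and null for Sav1-null, with the replicate number), coloured by log2(value + 1) minus the mean of the wild-type libraries. Sav1-null replicate 1 is the reddest column for most G2/M members, wild-type replicate 3 is the bluest wild-type column, and the Ccnd1, E2f1 and E2f2 rows turn blue in the Sav1-null columns.

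Other genes of the same processes were listed by function. Of 72 tested mitosis genes outside the 59, 56 rose and 3 fell, with a median log2 fold change of 1.30. After quantile normalization 18 were called higher, a smaller share than the 31.0% of all tested genes. Ncapd2, a condensin subunit gene, rose 2.60-fold, the alpha-tubulin gene Tuba1b 2.77-fold, Iqgap3, a scaffold gene of dividing cells, 5.76-fold, and Hjurp, the chaperone gene of the centromeric histone, 1.80-fold. The falls were in Depdc1b (458 ± 22.2 to 166 ± 39.5), the kinesin gene Kif20b (325 ± 82.4 to 135 ± 19.8) and Cks2, a CDK-binding subunit gene (223 to 99.7 in the group means), the last named after its value was seen. Of 48 tested replication genes outside the 59, 27 rose and 6 fell, with a median of 0.55, a share not far above the 43.9% of all tested genes. After quantile normalization 12 were called higher, again a smaller share than the 31.0% of all tested genes. Uhrf1, which guides maintenance methylation of new DNA, rose 5.10-fold and the DNA ligase gene Lig1 3.31-fold. The fork protection gene Timeless rose 3.01-fold and the clamp loader gene Rfc3 2.37-fold. Against them Mcm10, which helps to start the helicase, fell 3.84-fold (194 ± 11.2 to 51.8 ± 17.1). Thymidine kinase 1 (Tk1), also named after its value was seen, had group means of 290.4 and 193 (log2 fold change -0.58, limma adjusted p = 0.00495). Among the genes tested with a mean level between 14.2 and 2120, the range of the members other than Ccnd1, 46.7% were called higher and 21.3% lower.

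Marker genes of cell types and injury were read in the same libraries, beside 43.9% of all tested genes called higher and 25.2% lower. All 13 markers of injured tubule rose, with summed values of 23311 to 45545 in wild-type and 552140 to 876047 in Sav1-null libraries, and 14 of 15 proximal tubule markers fell (527568 to 590814 against 68661 to 172336), none of them at 0. Myeloid markers rose in 12 of 14 (summed 1234 to 2227 against 8829 to 12250). Of 13 lymphocyte markers 7 passed the filter, and all 7 rose (85.4 to 90.7 against 308 to 384 for the list). Fibroblast markers rose in 7 of 9 tested (1609 to 2427 against 3096 to 9244), and of 9 endothelial markers Kdr fell. Collecting duct and loop markers rose in 5 of 11, a share near that of all tested genes, and fell in 1, Slc4a1. Immediate early genes, which respond to tissue handling among other stimuli, rose in 5 of 7 tested (1478 to 4386 against 5822 to 9656). Sav1-null replicate 1, highest for the mitotic genes, had a myeloid sum of 9277, not the highest of its group, and a lymphocyte sum of 308, the lowest. Its fibroblast sum, 9244, and its endothelial sum, 3170, were the highest of the group. The part of these cell types in the rise of the replication and mitosis genes was not tested.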

How the data were processed

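Poly(A) RNA libraries of mouse kidney cortex, 4 per group, were analysed from 1 deposited table. Per the labels' protocols, RNA was isolated on columns and libraries were made with a stranded mRNA kit. RSEM, SAMtools, Picard 1.64 and build mm9 are named per the submitters' processing notes. No source used here gives the aligner, annotation or strand setting. The deposited values are a signal, RSEM gene estimates scaled by the authors to a fixed upper quartile per library, and are not raw counts. In each library 92.7% to 93.3% of entries under 400 were whole reads to within 0.02, with the size of 1 read chosen to make this share largest. The remaining entries were not whole reads, and no count model was fitted. RSEM divides reads shared with near-identical copies, so genes with pseudogene copies are uncertain.

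Genes with a mean of at least 10 were tested (13677 kept, 8028 removed) with limma 3.58.1 in R 4.3.3 on log2(value + 1), with a mean-variance trend, on 6 residual degrees of freedom, with Benjamini-Hochberg adjustment over all tested genes. Intervals are 95% limma intervals of the log2 fold change, and read numbers cover counting error only. Groups came from the titles. Whether each library is its own animal is not stated, and p-values rest on the spread among libraries, which may be technical.

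The 59 members and all lists were chosen with earlier results of these data known. All members could be named. Of each other list, up to 4 called genes with the smallest p in its main direction and 2 against it could be named, with some items not reported here, and promoters were printed for the smallest and the largest p as given in the text. Alternatives were pseudocounts of 0.5 and 10, no filter or a mean of at least 50, 3 other scalings, no trend, a replicate block, and leaving out libraries.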

Additional observations from a re-analysis of the deposited data

Results flagged for a closer look

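Among the 118 groups of 4 libraries that the 59 members make, 6 held a library set apart from the other 3 by more than Dixon's 95% critical value, and chance alone sets about 1 group in 20 apart. In the wild-type group Cdk4 was lowest in replicate 2 (1377, the others 1499 to 1508) and Cdc6 highest in replicate 4 (18.6, the others 5.44 to 7.66). In the Sav1-null group Cdt1 was lowest in replicate 3 (129.6, the others 173 to 177) and Pcna lowest in replicate 4 (433, the others 496 to 502). Sav1-null replicate 1 was highest for Kif11 (208, the others 120.1 to 128) and for Top2a (654, the others 442 to 465). Cdk4, Cdc6, Pcna, Kif11 and Top2a were called higher without each single library in turn.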

How the results depend on the processing

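The 47 rises and 2 falls were 27 and 5 after quantile normalization, where 31.0% of all tested genes were called higher and 33.3% lower. There 13 G2/M members were called higher, 5 G1/S members lower, and the medians were 0.50 (G1/S) and 0.48 (G2/M). Of the other genes 12 replication and 18 mitosis genes were called higher. The cause was not tested. With equal library totals 1 member was called lower (14.2% of all tested genes) and the G1/S median was 1.23. The G1/S median was 0.64 after median-of-ratios rescaling and 0.69 without wild-type replicates 2 and 3. With a mean of at least 50, which tests fewer genes, it was 0.74, and 31 other mitosis genes were called higher (41.8% of all tested genes). Leaving out 1 library at a time gave G1/S medians from 0.73 to 0.94. Sav1 had a log2 fold change of -0.18 with equal totals (limma adjusted p = 0.376), and from -0.71 to -0.43 leaving out 1 library, with calls lost without wild-type replicate 1 (limma adjusted p = 0.0613) or 2 (limma adjusted p = 0.0571). Log2 fold changes were positive for 54 of the 59 members as deposited and for 46 after quantile normalization. With median-of-ratios rescaling 52 were positive, and with equal totals 56. Among members called in either setting, Ccnd2 (-0.11), Cdk6 (-0.15), Gins1 (-0.82) and Cenpe (-0.21) changed sign after quantile normalization, as did Tyms with equal totals (0.38). With the replicate number of the titles as a block 47 members were called higher and 2 lower (43.3% and 24.8% of all tested genes). Libraries with the same replicate number had correlations of their deviations of 0.14, 0.08, -0.17 and 0.13 over all tested genes. Wild-type replicates 2 and 4 correlated best with the Sav1-null library of their own number, and replicates 1 and 3 did not. Correlations this small cannot decide whether libraries with the same replicate number were paired. Pairing by the S numbers of the column names, which follow another order, was not examined. Ttk rests on 3 to 34 reads a library.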
